A study of Arabidopsis thaliana with 47 samples.

Results

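The nuclear genes for the light-harvesting antenna and the photosystem subunits were followed in Arabidopsis thaliana (Columbia-0) leaves and in protoplasts, the wall-less cells released by enzyme digestion, made from them. The set holds 43 of the 28197 loci listed in any library, matched by locus identifier, and each locus was read from its lowest-numbered transcript. It contains 14 antenna genes of photosystem II (PSII; LHCB), 6 antenna genes of photosystem I (PSI; LHCA), 12 PSI subunit genes (PSA) and 11 PSII subunit genes (PSB). The 47 RNA-seq libraries fell into 12 groups. Their titles give replicate numbers but name no experiment. They were divided here into 3 experiments by runs of replicate numbers, within each of which the files list the same number of loci (28109, 25713 and 24852). In experiment 1 (12 libraries), freshly isolated protoplasts (Day 0), protoplasts after 14 days with the histone acetyltransferase inhibitor MB-3 (Day 14 MB-3) and after 14 days without inhibitor (Day 14 control), and the source leaves (Leaf) had 3 libraries each. In experiment 2 (26 libraries), Day 0 had 5 libraries, and Day 2 control, Day 4 yucasin, Day 4 MB-3, Day 4 control, Day 6 yucasin, Day 6 MB-3 and Day 6 control had 3 each; yucasin inhibits the YUCCA enzymes of auxin synthesis. In experiment 3 (9 libraries), Day 4 without 2,4-D, Day 4 control and Day 0 had 3 libraries each. All leaves came from wild-type plants 23 days after sowing, and all cultured protoplasts were held in alginate in the dark in a glucose medium with the synthetic auxin 2,4-D at 1 mg/L, except in the group without 2,4-D, and with the cytokinin-like thidiazuron at 176 µg/L. Every cultured group therefore differs from Day 0 in darkness, sugar, hormones, embedding and time together. Leaves hold epidermal, guard and vascular cells that mesophyll protoplasts lack, and in such bulk samples fewer cells of a type and less RNA per cell cannot be told apart. The libraries were described as biological replicates, and the p-values below measure the spread between them.

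Chlorophyll and carotenoids in thylakoid membranes are held by light-harvesting proteins, which pass excitation to the reaction centres of the photosystems. The reaction-centre cores are encoded in the plastid genome, while the antenna proteins, the oxygen-evolving proteins and many small subunits are encoded in the nucleus. In leaves, transcription of these nuclear genes is raised by light and by GOLDEN2-LIKE (GLK) factors and is lowered by sugar and by prolonged darkness.

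Several antenna genes are near-identical copies, so the level of a single copy depends on how the aligner placed shared reads. LHCB1.1 (AT1G29920), LHCB1.2 (AT1G29910) and LHCB1.3 (AT1G29930), which encode the major trimeric light-harvesting complex II, lie beside each other on chromosome 1 as genes of 1 exon, and their coding sequences of 804 bases differ at 47 positions. The first 90 coding bases are shown because 9 of those positions, in capitals, fall within them and because most of the run is common to the 3 copies. The sequences are RefSeq TAIR10.1 and run 5′ to 3′ on the coding strand, at chr1:10475803-10475892 (minus strand) for LHCB1.1, chr1:10473157-10473246 (minus strand) for LHCB1.2 and chr1:10478071-10478160 (plus strand) for LHCB1.3.
LHCB1.1: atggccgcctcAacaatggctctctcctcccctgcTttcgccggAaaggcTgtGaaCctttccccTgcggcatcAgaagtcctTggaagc
LHCB1.2: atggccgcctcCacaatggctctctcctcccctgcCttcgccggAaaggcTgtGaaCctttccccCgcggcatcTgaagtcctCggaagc
LHCB1.3: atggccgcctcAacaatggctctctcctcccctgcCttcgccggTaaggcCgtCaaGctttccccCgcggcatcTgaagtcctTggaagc
Identity over the coding sequence was 95.65% between LHCB1.1 and LHCB1.2, 96.14% between LHCB1.1 and LHCB1.3 and 96.39% between LHCB1.2 and LHCB1.3. LHCB2.1 and LHCB2.2, the copies of the antenna protein that moves between the photosystems in state transitions, were 96.62% identical. In the reference transcripts, 8 members (LHCB1.1 to LHCB1.5, LHCB2.1, LHCB2.2 and LHCA2) had 50-base windows that occurred more than once, from 10.65% of the windows of LHCB1.2 to 29.47% of those of LHCB2.2. The other 35 members, LHCB2.4 and all PSA and PSB pairs among them, had none. Values of single LHCB1 copies and of LHCB2.1 and LHCB2.2 are uncertain in this respect, and sums over the copies are given beside them.

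The 250 bases before the annotated gene starts of LHCB1.3, LHCB2.1 and LHCB2.4 are shown because these are the most abundant antenna copy and the LHCB2 copies whose levels diverged in culture. Capitals mark matches, on either strand, to the G-box CACGTG, the I-box core GATAAG or the letters CCAATC, which are associated with GLK binding. The windows lie at chr1:10477635-10477884 (plus strand), chr2:1824481-1824730 (minus strand) and chr3:10255656-10255905 (plus strand), and each is printed on its gene's strand.
LHCB1.3 upstream: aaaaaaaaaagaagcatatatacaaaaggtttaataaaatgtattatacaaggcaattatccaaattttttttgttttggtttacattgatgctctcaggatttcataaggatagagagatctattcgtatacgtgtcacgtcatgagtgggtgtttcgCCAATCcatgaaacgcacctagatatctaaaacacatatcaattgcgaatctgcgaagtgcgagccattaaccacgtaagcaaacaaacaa
LHCB2.1 upstream: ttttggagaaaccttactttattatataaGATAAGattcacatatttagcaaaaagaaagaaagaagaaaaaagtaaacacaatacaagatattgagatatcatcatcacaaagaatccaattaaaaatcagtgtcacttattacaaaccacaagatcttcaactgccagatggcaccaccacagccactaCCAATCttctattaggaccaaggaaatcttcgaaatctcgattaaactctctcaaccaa
LHCB2.4 upstream: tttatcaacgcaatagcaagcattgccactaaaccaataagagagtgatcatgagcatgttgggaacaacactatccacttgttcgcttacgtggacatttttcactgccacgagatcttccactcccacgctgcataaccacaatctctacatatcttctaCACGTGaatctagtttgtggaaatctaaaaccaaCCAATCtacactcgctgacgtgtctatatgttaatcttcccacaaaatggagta
LHCB2.4 alone of these held CACGTG, and LHCB2.1 alone held GATAAG. Over the same window, CACGTG was found in 9 of 43 members (20.9%), against 6.49% of 27443 genes. GATAAG was found in 9 members (20.9%, against 12.3% of all genes) and CCAATC in 11 (25.6%, against 10.2%). AAATATCT, an evening-element-like run searched on both strands, was found in 1 member (2.33%, against 4.79%), and TATAAA on the coding strand in 12 (27.9%, against 32.9%). These matches describe letters only, and the windows of 19 members overlap another annotated gene.

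Libraries held 4.34 to 19.1 M mapped reads (median 8.46 M). Normalisation factors (trimmed mean of M-values, TMM) were lowest in Day 0 libraries, and scaling by total counts alone moved the median log2 fold change of all loci by -1.03 for Day 0 against Leaf and by 0.80 to 1.304 for cultured groups against Day 0. Leaf replicate 3, Day 14 MB-3 replicate 1, Day 2 control replicate 5 and Day 4 without 2,4-D replicate 9 stood apart from their groups on several members, and results that rest on them are given with and without them. Leaves carried vascular markers (summed level 938 to 1195 counts per M of the scaled library size, CPM), epidermal markers (202 to 272 CPM) and guard cell markers (70.9 to 126 CPM). In Day 0 protoplasts of experiment 1 the same marker sums were 15.5 to 27.3, 1.34 to 4.55 and 2.04 to 5.09 CPM. The sum of 5 mesophyll markers outside the set, the Rubisco small subunit, Rubisco activase, carbonic anhydrase and glyceraldehyde-3-phosphate dehydrogenase genes, was 1207 to 3503 CPM at Day 0, against 10255 to 20892 CPM in leaves.

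The 43 genes together took a small share of the RNA in every protoplast group. They made up 0.394% to 0.923% of counts at Day 0, against 8.30%, 7.92% and 19.2% in the 3 Leaf libraries. In each leaf library a member, LHCB1.3, was the most abundant locus of all, and 25 to 32 members were among its 100 most abundant loci, whereas no protoplast library had more than 1. Along culture in experiment 2, the share averaged 0.767% at Day 0, 0.608% at Day 2, 0.343% at Day 4 and 0.404% at Day 6. In experiment 1 it averaged 0.263% at Day 14 (0.244% to 0.283%), when the most abundant member was LHCA4 or PSBO-1 and ranked between 896 and 1169 among all loci. The range over the 5 Day 0 libraries of experiment 2 was wide, at 0.411% to 1.17%.

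**Figure D1:**
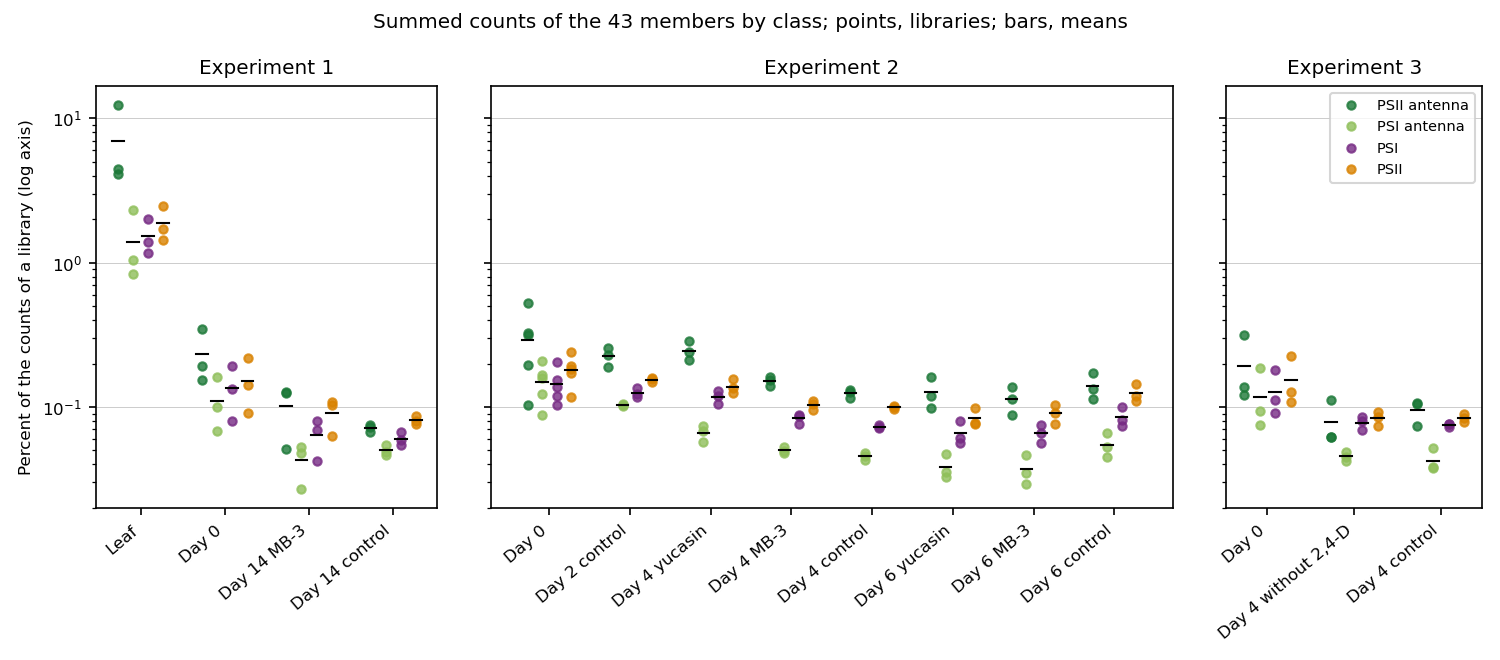
Percent of a library's counts taken by the summed members of each class (log axis), by group, with experiments in separate panels; points are libraries and bars are means. The PSII antenna stands highest in leaves, at 4.14% to 12.4%, and no class exceeds 0.522% in any protoplast library.

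The balance between classes differed between leaf and protoplasts. Of the members' counts, the PSII antenna took 33.7%, 39.3% and 37.8% in Day 0 libraries, against 49.96%, 56.4% and 64.4% in leaves. At Day 14 it took 26.3%, 28.1% and 27.3% in controls, below every Day 0 library of that experiment, and 27.98%, 36.2% and 34.3% with MB-3. The 5 LHCB1 copies accounted for much of this, with 22.3%, 28.6% and 27.9% of the members' counts at Day 0, against 36.02%, 45.1% and 51.6% in leaves. These are shares of a closed total, and every other class took a larger share at Day 0 than in leaves. The PSI antenna had 17.3% to 17.7% at Day 0, against 10.6% to 12.6% in leaves, and the PSI and PSII subunits moved the same way. The groups did not overlap in any class. Levels per length, as CPM per kilobase of transcript, gave a similar order: LHCB1.3 (18222), LHCB1.5 (9127), LHCB1.1 (5682) and PSBR (5662) were highest in leaves, and PSBR (1646) and LHCB1.3 (1149) at Day 0. PSBR (135.8), LHCA4 (102.1) and PSBX (99.3) were highest in Day 14 controls. The lowest per length were LHCB4.3 in leaves (7.87) and at Day 0 (1.56) and LHCA6 in Day 14 controls (0.177) (all group means).

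Comparing Day 0 with Leaf asks what the isolation of protoplasts did to these transcripts. All 43 members were lower at Day 0 at an adjusted p below 0.01, by edgeR's quasi-likelihood test with Benjamini-Hochberg adjustment over 20205 loci, where 33.2% of all loci were called lower. Here and below, "rose" and "fell" are used for this threshold at any fold. With the study's added requirement of a log2 fold change beyond 2 in size, 36 members were lower and 0 higher, against 22.4% of loci called lower and 11.7% called higher. The median log2 fold change was -3.04 over the members and -0.56 over all loci. By class it was -4.11 in the PSII antenna, -2.69 in the PSI antenna, -2.43 in PSI and -2.98 in PSII, and the fold threshold was passed by 14 of 14, 4 of 6, 9 of 12 and 9 of 11 members of these classes. Of the 12 members with a log2 fold change below -4, 8 were PSII antenna genes and 0 were PSI antenna genes. Without Leaf replicate 3, 36 members fell and 28 passed the fold threshold, and without replicate 1 of both groups 29 fell.

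In the PSII antenna, LHCB1.3 had 1073, 922 and 2245 CPM at Day 0, against 14188, 15305 and 37745 CPM in leaves. It fell in every Day 0 library relative to every leaf (log2 fold change -3.99, SE 0.58, adjusted p = 4.48e-05), and the 5 LHCB1 copies summed gave a log2 fold change of -4.03 (adjusted p = 0.000128). LHCB2.1 (AT2G05100) had 77.2, 25.2 and 112 CPM at Day 0, against 1121, 560.2 and 2078 CPM in leaves (log2 fold change -4.13, SE 0.57, adjusted p = 2.97e-05). The most reduced member of the whole set was LHCB4.2 (AT3G08940), a copy of the minor antenna protein CP29 that sits between the core and the trimers, with 24.2, 13.1 and 41.5 CPM at Day 0, against 1178, 711 and 2574 CPM in leaves (log2 fold change -5.83, SE 0.59, adjusted p = 2.06e-06). LHCB4.3 (AT2G40100), a rarely expressed CP29 gene, had 3.31, 1.34 and 1.52 CPM at Day 0, against 20.8, 6.88 and 3.54 CPM in leaves, and the ranges lay close together (log2 fold change -2.33, SE 0.64, adjusted p = 0.00553). In the PSI antenna, LHCA4 fell most among its class (log2 fold change -3.38, SE 0.55, adjusted p = 0.000116), with 415, 198 and 554 CPM at Day 0, against 2761, 1721 and 7643 CPM in leaves. LHCA5 and LHCA6, rare antenna proteins that link PSI with the chloroplast NADH dehydrogenase-like complex, fell less or about as much (log2 fold changes -1.59 and -3.04; adjusted p = 0.00142 and 0.000116). Among PSI subunits, PSAD-2, which docks ferredoxin on the stromal side, fell most, with 21.2, 14.5 and 18.8 CPM at Day 0, against 707, 340.2 and 969 CPM in leaves (log2 fold change -5.21, SE 0.40, adjusted p = 2.12e-07). Among PSII subunits it was PSBX (AT2G06520), a small subunit near the core, with 43.1, 23.3 and 77.3 CPM at Day 0, against 1018, 927 and 2197 CPM in leaves (log2 fold change -4.85, SE 0.51, adjusted p = 2.9e-06). In all of these the Day 0 and Leaf libraries did not overlap, and all 43 members were lower in every Day 0 library than in every leaf, as were 41.8% of all loci, with 29.8% of loci higher in every one. LHCB4.3 no longer passed without replicate 1 or replicate 2 of both groups (adjusted p = 0.0125 and 0.0351), nor LHCA5 without replicate 1 (0.0482) or Leaf replicate 3 alone (0.0101).

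Most members were lower again in culture, and by Day 4 this held for 37 of the 43. In experiment 2, 30 members fell and 1 rose at Day 2 against Day 0 (background 30.3% of loci lower and 38.3% higher), 37 fell and 2 rose at Day 4 (35.2% and 43.9%), and 33 fell and 2 rose at Day 6 (35.9% and 45.4%). Past the fold threshold were 2, 27 and 24 members, all lower, against 4.78%, 13.1% and 16.3% of loci called lower and 18.5%, 25.3% and 27.5% called higher. These comparisons share the Day 0 libraries. Median log2 fold changes of the PSII antenna, PSI antenna, PSI and PSII members were -1.18, -1.31, -1.003 and -0.76 at Day 2, -2.06, -2.68, -2.05 and -1.597 at Day 4, and -2.12, -3.05, -2.18 and -1.33 at Day 6, while the medians of all loci were 0.22, 0.32 and 0.34. Under total-count scaling, which moves all loci upward here, 7 members fell and 6 rose at Day 2, 27 fell and 6 rose at Day 4, and 25 fell and 7 rose at Day 6. Past the fold threshold 0 were lower and 1 higher at Day 2, 4 lower and 0 higher at Day 4, and 6 lower and 2 higher at Day 6. The shares of all loci called under that scaling were not counted, here or below, and the background shares given belong to the TMM fit. At Day 4, 30 members were lower and 2 higher in every library than in every Day 0 library, as were 34.5% and 44.7% of loci. Without replicate 7, the count past the fold threshold at Day 4 was 15, and the count at Day 2 was 1 without replicate 7 or without replicate 8. The 5 mesophyll markers outside the set fell at each of these times, with medians of -1.71, -2.95 and -3.21, and summed to 463 to 528 CPM at Day 4, against 1904 to 5091 CPM at Day 0. In the same libraries the 4 guard cell markers, all of them counted, summed to 15.6 to 19.96 CPM at Day 4, against 1.02 to 2.14 CPM at Day 0, and mitochondrial loci took 0.507% to 0.647% of counts, against 0.0345% to 0.0443%. Their part in the members' change was not tested.

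LHCB1.3 had 521, 944, 1480.2, 2789 and 1482 CPM at Day 0, 589, 578 and 585 CPM at Day 2, 312, 308 and 266 CPM at Day 4 and 337, 257 and 231 CPM at Day 6. The lowest Day 0 library lay below the Day 2 libraries but above those of Days 4 and 6, and the log2 fold changes were -1.31, -2.29 and -2.39 (adjusted p = 0.00103, 1.63e-06 and 8.47e-07). LHCB1.2 fell most in the PSII antenna at Days 4 and 6 (-3.26 and -3.54), LHCB2.1 reached -1.51 and -2.17 after a value of -0.56 at Day 2 (adjusted p = 0.167), and LHCB4.3 fell at Days 2 and 4 (-1.97 and -2.097) but not at Day 6 (-0.97, adjusted p = 0.0381). The LHCB2.1 and LHCB4.3 groups overlapped. Day 0 replicate 4 had 24.6 CPM of LHCB2.1, below every Day 4 control (29.1 to 36.03 CPM). It had 0.724 CPM of LHCB4.3, from 3 counts, below every Day 2 and Day 4 control (0.925 to 1.34 CPM). The deepest decline of all was that of LHCA6 (AT1G19150), at 3.62, 9.61, 11.5, 16.2 and 12.3 CPM at Day 0, 1.76, 3.37 and 2.098 CPM at Day 2, 0.755, 0.636 and 0.698 CPM at Day 4 and 0.446, 0.141 and 0.224 CPM at Day 6. It fell at each time (log2 fold changes -2.21, -3.95 and -5.27; adjusted p = 3.28e-06, 1.18e-09 and 8.63e-11), though the Day 6 values rest on 6, 2 and 3 counts. LHCA5, which did not pass at Day 2 without replicate 6 (adjusted p = 0.0119), followed it, at -1.07, -2.71 and -3.77 (adjusted p = 0.00123, 1.21e-08 and 1.7e-10).

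Among subunits, PSBO-2 (AT3G50820), a copy of the manganese-stabilising protein of the oxygen-evolving complex, had 154, 208, 201, 285 and 254 CPM at Day 0, 61.5, 104 and 53.8 CPM at Day 2, 22.9, 23.2 and 20.8 CPM at Day 4 and 35.1, 22.3 and 19.7 CPM at Day 6. All cultured libraries lay below all Day 0 libraries, and PSBO-2 fell most among PSII members at each time (log2 fold changes -1.599, -3.31 and -3.103; adjusted p = 4.6e-06, 8.32e-11 and 1.81e-10). Among PSI members it was PSAN, a lumenal subunit, at Days 2 and 4 (-1.84 and -2.72) and PSAF, which docks plastocyanin, at Day 6 (log2 fold change -2.49, SE 0.17, adjusted p = 2.04e-12). The exceptions were few. PSBX rose at Days 4 and 6 (log2 fold changes 0.98 and 1.38; adjusted p = 0.00281 and 8.06e-05), with 9.66, 24.3, 27.8, 51.8 and 33.9 CPM at Day 0, 47.6, 24.5 and 62.5 CPM at Day 2, 55.8, 58.6 and 62.6 CPM at Day 4 and 86.03, 75.7 and 72.5 CPM at Day 6. PSAD-2 rose at Day 2 (log2 fold change 1.61, SE 0.24, adjusted p = 1.34e-06), with 39.1, 67.7 and 39.3 CPM at Day 2 (the highest being replicate 5), against 18.6, 8.14, 17.02, 19.97 and 15.8 CPM at Day 0, while PSAD-1 did not pass the test (0.31, adjusted p = 0.134). PSBX did not pass at Day 4 without replicate 4, 5 or 6 (adjusted p = 0.013 to 0.0209). PSAH-2 rose at Days 4 and 6 while its copy PSAH-1 fell. Between successive times, 25 members fell and 0 rose at Day 4 against Day 2 (background 24.4% lower and 23.2% higher; 15 fell without replicate 5). In that step 0 passed the fold threshold (2.88% lower, 5.72% higher; 32 lower and 0 higher at an unadjusted p below 0.05, and 0 past the fold threshold by DESeq2).

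The same step was largest for LHCA2 (log2 fold change -1.84, SE 0.25, adjusted p = 2.41e-06), LHCB1.4 (log2 fold change -1.83, SE 0.40, adjusted p = 0.00043), PSBO-2 (log2 fold change -1.71, SE 0.28, adjusted p = 1.89e-05) and PSAD-2 (log2 fold change -1.501, SE 0.26, adjusted p = 4.25e-05) in their classes. LHCA5 and LHCA6 fell in it too (-1.64 and -1.73; adjusted p = 0.000145 and 0.00191), and PSAH-1 fell (-1.099) where PSAH-2 (0.12, adjusted p = 0.737) did not pass. The calls of LHCA6 and LHCB1.4 ended without replicate 5 (adjusted p = 0.057 and 0.0181), and that of LHCA6 also without replicate 6 (0.0185). PSAD-1, LHCB1.3, LHCB2.1 and LHCB4.3 did not pass (log2 fold changes -0.22, -0.98, -0.94 and -0.13; adjusted p = 0.368, 0.0202, 0.0508 and 0.859), whereas the summed LHCB1 copies did (-1.20, adjusted p = 0.0089). At Day 6 against Day 4 a single member passed: PSBTN, a small PSII subunit, rose (log2 fold change 0.74, SE 0.19, adjusted p = 0.00434), though not without replicate 4, 5 or 6 (adjusted p = 0.0229 to 0.0306), and 0 members fell, against 8.1% of loci higher and 10.7% lower, and 0 members passed the fold threshold (1.6% higher, 1.83% lower). At an unadjusted p below 0.05 the counts were 5 higher and 4 lower, DESeq2 called 0 past the fold threshold, and the 5 followed members LHCB1.3, LHCB2.1, LHCB4.3, LHCA5 and LHCA6 had log2 fold changes of -0.103, -0.66, 1.13, -1.06 and -1.33 (adjusted p = 0.852, 0.239, 0.0947, 0.0289 and 0.0918). Without replicate 4 LHCA5 fell in this step (-1.06, adjusted p = 0.00828).

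**Figure D2:**
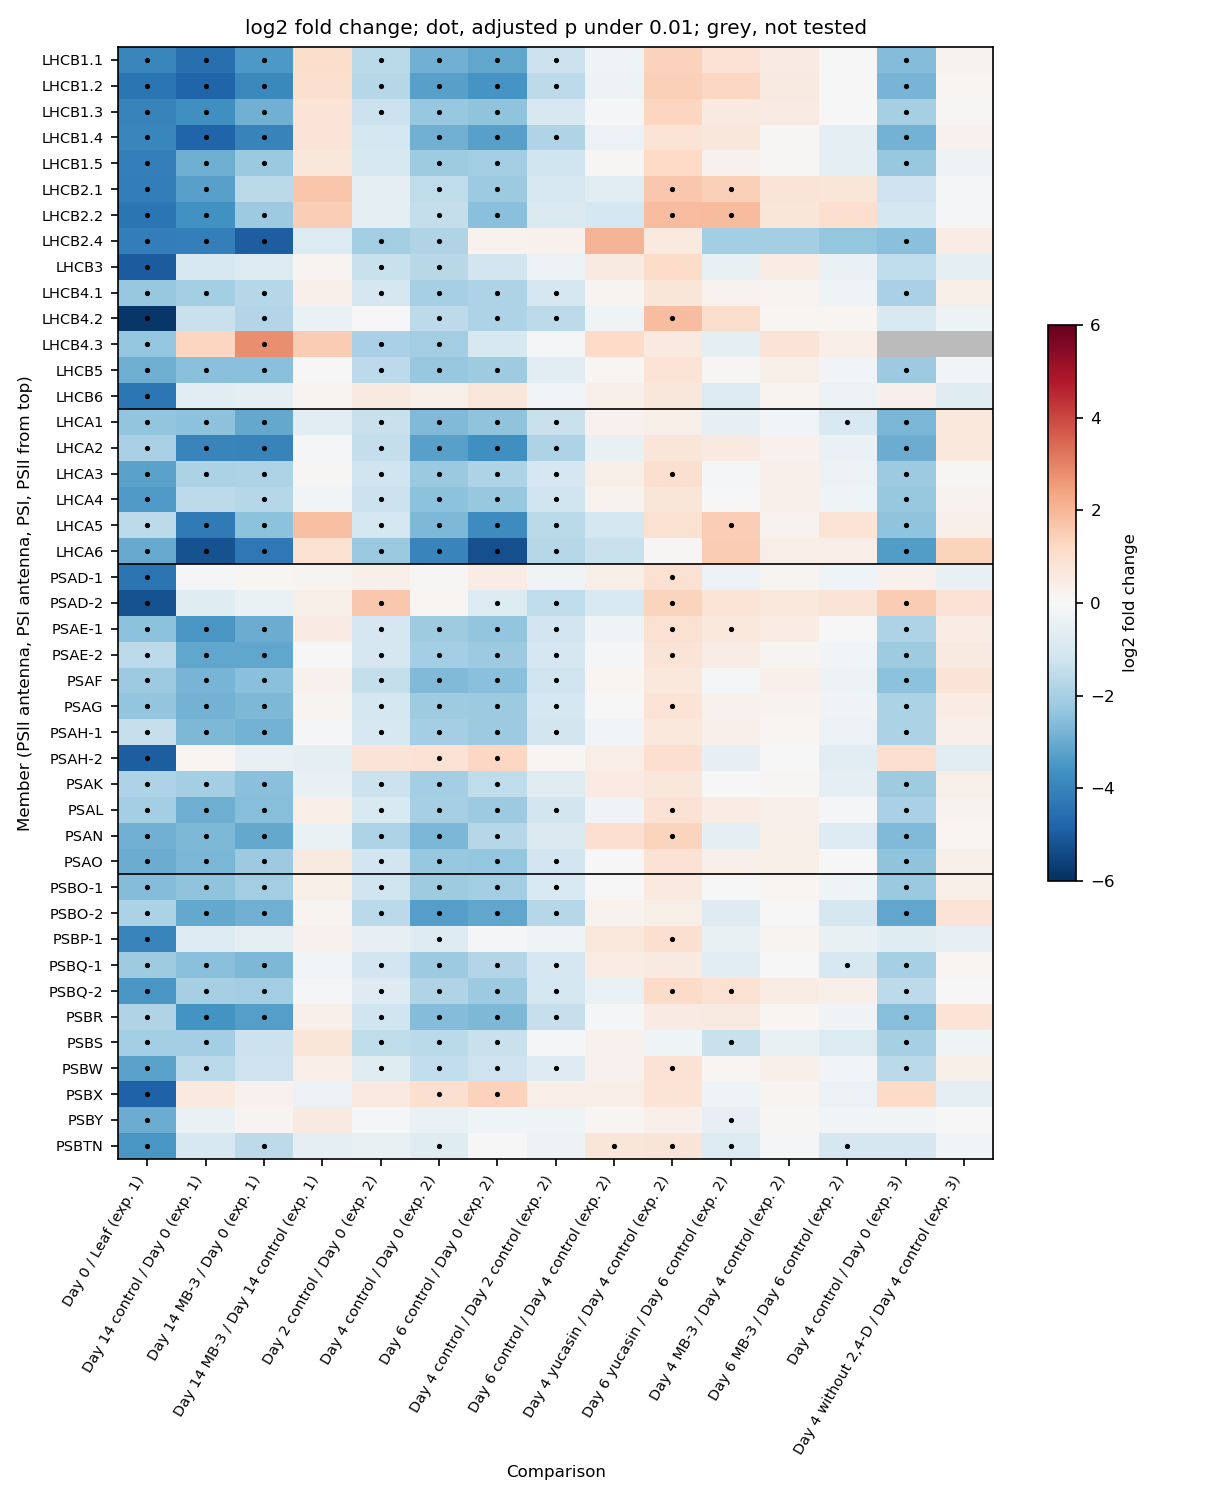
Fitted log2 fold change (colour scale, -6 to 6) of each member (rows, by class) in each comparison (columns); a dot marks an adjusted p under 0.01, and grey marks LHCB4.3 in experiment 3, which was not tested. The first column is blue throughout, the columns of cultured controls against Day 0 are blue for most members, and the yucasin column at Day 4 is red for all members except PSBS.

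After 14 days in control medium, 31 members had fallen and 0 had risen against Day 0 in experiment 1 (background 27.7% of loci lower and 30.7% higher), and 28 of the falls were past the fold threshold (13.5% lower, 20.5% higher). The members' median log2 fold change was -2.53, against 0.29 over all loci, with class medians of -3.10 (PSII antenna), -3.20 (PSI antenna), -2.72 (PSI) and -1.97 (PSII). In every Day 14 control library 34 members were lower and 1 higher than in every Day 0 library, as were 33.9% and 40.6% of loci. With total-count scaling 19 fell and 5 rose, and 11 were lower and 1 higher past the fold threshold. The 5 mesophyll markers outside the set also fell (median -3.51). LHCB1.3 had 117, 119 and 96.2 CPM in Day 14 controls, against 1073, 922 and 2245 CPM at Day 0 (log2 fold change -3.67, SE 0.57, adjusted p = 7.61e-05), and the LHCB1 copies summed gave -3.78 (adjusted p = 0.00019). LHCB1.2 fell most in the PSII antenna (log2 fold change -4.82, SE 0.70, adjusted p = 4.23e-05), and LHCB2.1 had 6.61, 9.22 and 6.25 CPM in Day 14 controls, against 77.2, 25.2 and 112 CPM at Day 0 (log2 fold change -3.27, SE 0.56, adjusted p = 0.000175). These levels did not overlap between the groups, though LHCB2.1 did not pass without replicate 1 (adjusted p = 0.0104).

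The rare PSI antenna genes LHCA5 and LHCA6 had at most 38 and 7 counts in a Day 14 control library. LHCA6 had 2, 0 and 7 counts in Day 14 controls, against 37, 22 and 25 counts at Day 0 (log2 fold change -5.204, SE 0.72, adjusted p = 2.79e-05), and LHCA5 had 1.32, 0.625 and 1.92 CPM in Day 14 controls, against 26.8, 13.1 and 34.6 CPM at Day 0 (log2 fold change -4.25, SE 0.43, adjusted p = 1.85e-06). LHCB4.3 was the member higher in every Day 14 control than in every Day 0 library, at 4.63, 5.21 and 5.35 CPM in Day 14 controls, against 3.31, 1.34 and 1.52 CPM at Day 0, although the test was not passed (log2 fold change 1.28, SE 0.65, adjusted p = 0.0947) except without replicate 1 (1.80, adjusted p = 0.00729). PSAE-1, which like PSAD helps to dock ferredoxin, fell most among PSI members (log2 fold change -3.49, SE 0.45, adjusted p = 1.59e-05), and PSBR, a small subunit near the oxygen-evolving complex, most among PSII members (log2 fold change -3.599, SE 0.43, adjusted p = 7.96e-06). In the single comparisons with Day 0, 35.2% of loci were lower at Day 4, 35.9% at Day 6, 27.7% at Day 14 and 26.7% at Day 4 of experiment 3. The share of loci lower in several of them at once was not counted. Over the Day 4, Day 6 and Day 14 controls, 30 members fell in all 3 comparisons, 28 of which also fell in experiment 3. LHCB6, PSAD-1, PSAH-2, PSBX and PSBY fell in none of the 3. These 5, like all members, had fallen at Day 0 against Leaf, with log2 fold changes below -4 for LHCB6, PSAD-1, PSAH-2 and PSBX. That comparison and the Day 14 comparison share their Day 0 libraries, so a low Day 0 level enters both.

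Experiment 3 gave a second Day 4 control against its own Day 0. There, 30 of 42 tested members fell and 1 rose (background 26.7% of loci lower and 34.8% higher), and 20 of the falls passed the fold threshold (11.1% lower, 24% higher; 12 members without replicate 11). LHCB4.3 was not tested because its counts were too low. With total-count scaling 19 fell and 3 rose, and 2 were lower and 2 higher past the fold threshold. The 5 mesophyll markers outside the set fell here too (median -2.91). Class medians were -1.996, -2.58, -1.94 and -1.62 in the order used above. LHCB1.3 had 238, 153 and 221 CPM at Day 4, against 524, 591 and 1328 CPM at Day 0 (log2 fold change -1.996, SE 0.44, adjusted p = 0.0019), and LHCB2.1 had 32.8, 25.6 and 35.1 CPM, against 39.1, 59.1 and 124 CPM (log2 fold change -1.25, SE 0.51, adjusted p = 0.0477). Without replicate 10 or 11 LHCB1.3 did not pass (adjusted p = 0.0195 and 0.0286), and without replicate 9 LHCB2.1 did (-1.49, adjusted p = 0.00048). The largest falls by class were LHCB1.4 (-2.82, adjusted p = 0.000395), LHCA6 (-3.36, 0.000455), PSAN (-2.63, 4.1e-05) and PSBO-2 (-3.13, 8.24e-05), and LHCA5 fell as well (-2.42, 0.000128). PSAD-2 rose (log2 fold change 1.502, SE 0.38, adjusted p = 0.00468), with 17.8, 35.1 and 32.98 CPM at Day 4, against 8.83, 8.89 and 12.6 CPM at Day 0, while PSAD-1 did not pass (0.24, adjusted p = 0.525); PSAD-2 did not pass without replicate 10 or 11 (adjusted p = 0.0757 and 0.0271). The change at Day 4 against Day 0 was tested for a difference between experiments 3 and 2 over 20921 loci, and 0 members passed (background 0.00478% of loci higher and 0.00478% lower; 1 member higher and 0 lower at an unadjusted p below 0.05). That 1 member was PSAD-2, at a difference of 1.32 (SE 0.46, adjusted p = 0.375); in experiment 2 its change at Day 4 did not pass (0.11). The differences of LHCB1.3, LHCB2.1, LHCB4.3, LHCA5 and LHCA6 were 0.24, 0.21, 0.65, 0.22 and 0.48, with adjusted p between 0.895 and 1.

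Copies of the same subunit did not keep their proportions, as in the PSAH pair. PSAH-1 (AT3G16140) and PSAH-2 (AT1G52230) encode PSAH, where light-harvesting complex II docks to PSI, and their coding sequences were 86.99% identical. PSAH-2 gave 7.59%, 4.18% and 6.72% of the pair's counts at Day 0 in experiment 1, against 46.2%, 44.9% and 44.8% in leaves, and 4.88% to 6.58% and 4.74% to 6.46% at Day 0 in experiments 2 and 3. In experiment 2 it then reached 17.4%, 6.597% and 26.03% at Day 2, 29.5%, 29.5% and 38.6% at Day 4 and 40.7%, 40.5% and 41.1% at Day 6. In experiment 1 it was 33.2%, 34.2% and 33.98% in Day 14 controls. The Day 2 libraries spread widely, with replicate 5 at the level of Day 0 and the others above every Day 0 library.

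**Figure D3:**
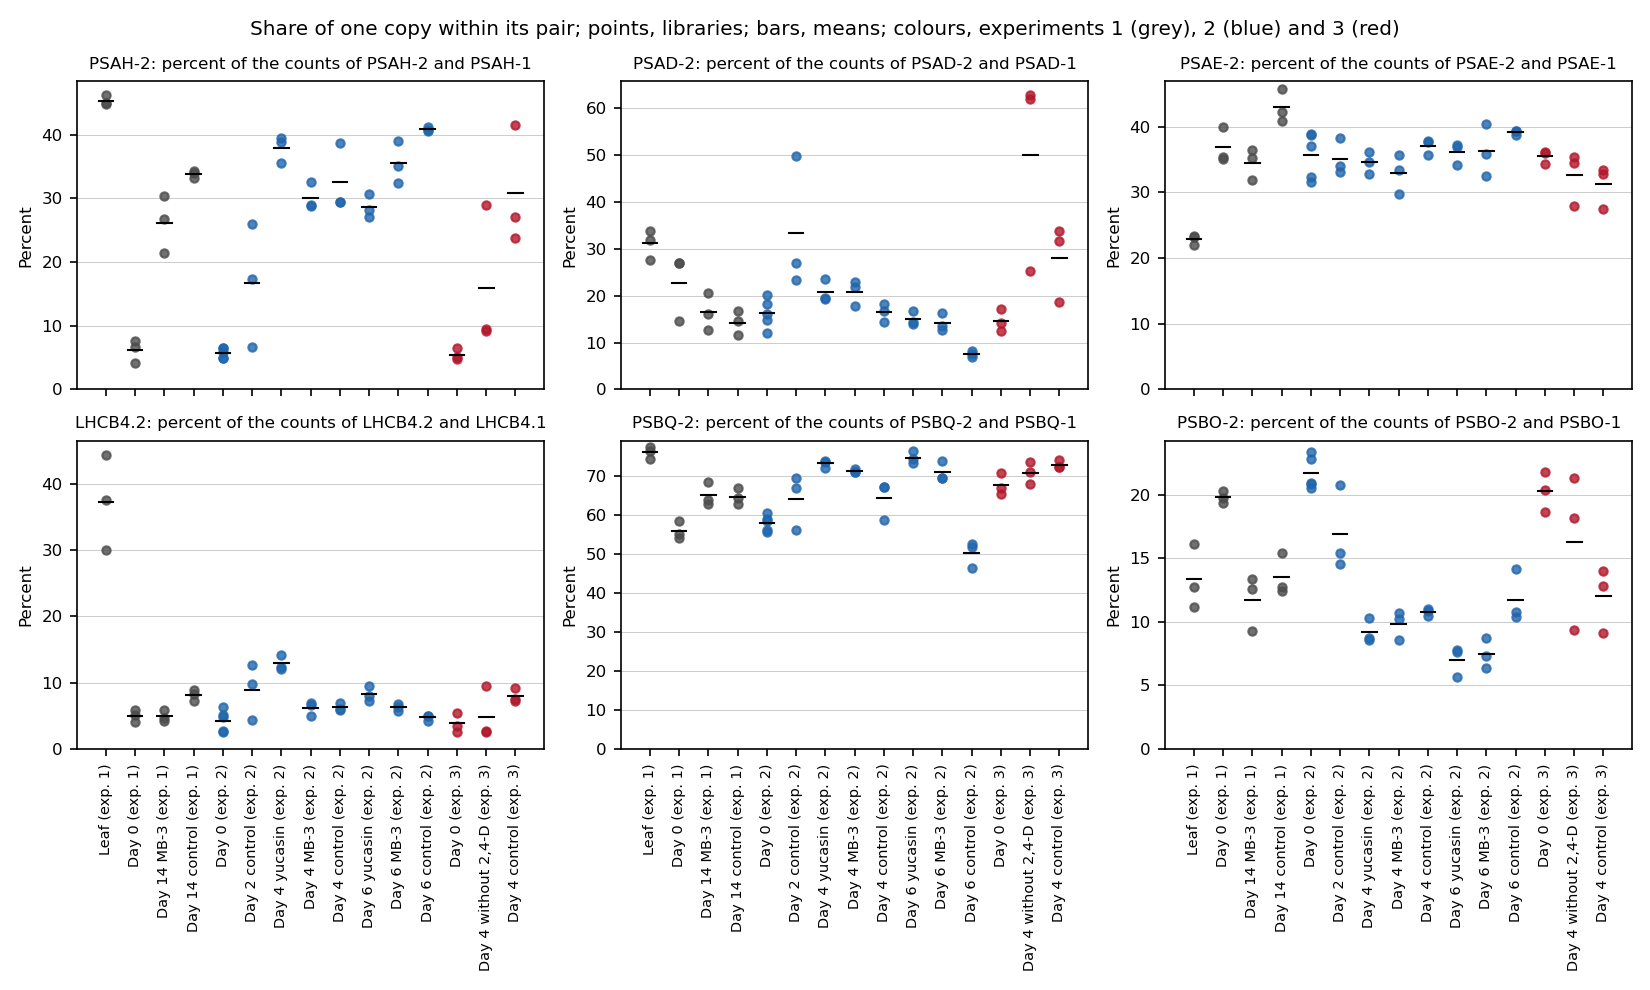
Share of 1 copy in the summed counts of its pair (percent), by group, for 6 pairs; points are libraries, bars are means, and colours mark experiments 1 (grey), 2 (blue) and 3 (red). The PSAH-2 share is 44.8% to 46.2% in leaves, 4.2% to 7.6% in all Day 0 libraries and 40.5% to 41.1% in Day 6 controls.

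The 2 copies had opposite tests in culture. PSAH-1 had 245, 117 and 341 CPM at Day 0, against 591, 461 and 794 CPM in leaves (log2 fold change -1.39, SE 0.36, adjusted p = 0.00345), and PSAH-2 had 20.1, 5.09 and 24.6 CPM, against 508, 375 and 644 CPM (log2 fold change -4.94, SE 0.51, adjusted p = 2.41e-06). In culture PSAH-1 fell at Days 2, 4, 6 and 14 (log2 fold changes -0.96, -2.05, -2.198 and -2.72). PSAH-2 rose at Days 4 and 6 (0.88 and 1.26; adjusted p = 0.00465 and 0.000138) and did not pass at Days 2 and 14 (0.76 and 0.13; adjusted p = 0.0165 and 0.808). PSAH-2 did not pass at Day 4 without replicate 4, 6 or 8 (adjusted p = 0.0316, 0.0282 and 0.011) and did pass at Day 2 without replicate 5 or 7 (1.04 and 1.001; adjusted p = 0.000954 and 0.00425). In experiment 3 the values at Day 4 were -1.92 (adjusted p = 9.12e-05) for PSAH-1 and 1.02 (0.15) for PSAH-2.

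LHCB4.2 gave 5.14%, 4% and 5.85% of the counts of LHCB4.1 and LHCB4.2 at Day 0, against 37.5%, 29.9% and 44.3% in leaves, and in protoplasts it was highest with yucasin at Day 4. PSBQ-2, a copy of a small oxygen-evolving protein, gave 58.3%, 55.04% and 54.02% of its pair at Day 0, against 74.4%, 76.2% and 77.3% in leaves, and PSAE-2 gave 35.5%, 40% and 35.1% at Day 0, against 21.9%, 23.2% and 23.4% in leaves, without overlap. PSBO-2, like PSAE-2, had a higher share of its pair at Day 0, at 20.3%, 19.8% and 19.4%, against 16.1%, 12.7% and 11.2% in leaves, and it dropped to 10.9%, 11.04% and 10.4% in Day 4 controls of experiment 2, against 20.5% to 23.3% at Day 0. PSAD-2 gave 26.9%, 26.9% and 14.5% of its pair at Day 0, against 31.9%, 27.6% and 33.8% in leaves. At Day 6 PSAD-2 fell (log2 fold change -0.82, SE 0.26, adjusted p = 0.00502) and PSAD-1 did not pass (0.44, adjusted p = 0.0325), and the PSAD-2 share was 7.48%, 8.17% and 6.84%, below every Day 0 library of experiment 2. Under total-count scaling the value for PSAD-2 had the opposite sign (0.29, adjusted p = 0.26). The fall did not pass without replicate 4, 6, 7 or 8 (adjusted p = 0.0187 to 0.0377), and PSAD-1 rose without replicate 7 (0.66, adjusted p = 0.00635).

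The comparisons of yucasin with control at the same day ask how the set behaved when auxin synthesis was inhibited. At Day 4, 15 members rose and 0 fell with yucasin (background 6.8% of loci higher and 6.63% lower), and 0 passed the fold threshold (1.49% higher, 2.12% lower). All 3 yucasin libraries were above all 3 control libraries for 40 of the 43 members, as for 22% of all loci. At an unadjusted p below 0.05, where only members were counted, 36 were higher and 0 lower. The members took 0.567% of counts on average with yucasin, against 0.343% in controls. DESeq2 called 20 higher and 0 lower at any fold and 0 past the fold threshold. Most of the 15 calls did not survive leaving out a replicate number from both groups, which also leaves fewer libraries to test. The count that rose was 0 without replicate 4, 4 without replicate 5 and 0 without replicate 6, and 7 rose under total-count scaling. Class medians were 1.15 (PSII antenna), 0.73 (PSI antenna), 0.85 (PSI) and 0.60 (PSII), and -0.01 over all loci. In the same libraries the epidermal markers (3 of 4 counted with yucasin) summed to 8.44 to 11.4 CPM with yucasin, against 2.303 to 3.0972 CPM in controls, and the guard cell markers (4 of 4) to 21.4 to 33.04 CPM, against 15.6 to 19.96 CPM. The senescence markers (3 of 4) summed to 220.3 to 344 CPM with yucasin, against 113 to 217 CPM in controls, and the dark- and sugar-responsive genes (8 of 8) to 1405 to 1944 CPM, against 654 to 1118 CPM. Mitochondrial loci took 1.59% to 2.12% of counts with yucasin, against 0.507% to 0.647% in controls, and the 5 mesophyll markers outside the set summed to 542 to 652 CPM, against 463 to 528 CPM, with 0 of 5 past the test. The part of these in the members' change was not tested.

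LHCB2.1 had 113, 83.6 and 98.5 CPM with yucasin at Day 4, against 36.03, 29.1 and 31.4 CPM in controls, without overlap (log2 fold change 1.61, SE 0.41, adjusted p = 0.00614). LHCB4.2 had 42.9, 33.7 and 42.8 CPM with yucasin, against 10.4, 10.4 and 12.01 CPM in controls (log2 fold change 1.86, SE 0.42, adjusted p = 0.00207), which raised its share of its pair to 12.4%, 12.04% and 14.2% with yucasin, against 5.82%, 6.03% and 6.95% in controls. LHCB1.3 had 856, 632 and 655 CPM with yucasin, against 312, 308 and 266 CPM in controls (log2 fold change 1.27, SE 0.36, adjusted p = 0.0112), and in the fit blocked by replicate number it passed (1.28, adjusted p = 0.00457). LHCB2.2, named here after its values were seen, rose by a similar amount to LHCB2.1 (1.84, adjusted p = 0.00281), and the summed LHCB2 copies gave 1.61 (adjusted p = 0.00907) and the summed LHCB1 copies 1.24 (adjusted p = 0.0192). LHCA3 rose in the PSI antenna (log2 fold change 0.94, SE 0.24, adjusted p = 0.00672), and LHCA5, LHCA6 and LHCB4.3 did not pass (0.93, 0.05 and 0.61; adjusted p = 0.0443, 0.959 and 0.482). PSAN had 33.04, 28.5 and 36.9 CPM with yucasin, against 12.2, 12.7 and 14.1 CPM in controls, and rose most among PSI members (log2 fold change 1.34, SE 0.31, adjusted p = 0.00266). Among PSII members PSBQ-2 rose most, with 108, 84.01 and 99.6 CPM with yucasin, against 48.2, 45.4 and 39.5 CPM in controls (log2 fold change 1.13, SE 0.26, adjusted p = 0.00265), while PSBQ-1 did not pass (0.54, adjusted p = 0.138). The other risers were PSAD-1, PSAD-2, PSAE-1, PSAE-2, PSAG, PSAL, PSBP-1, PSBW and PSBTN, with log2 fold changes of 0.79 to 1.31, and PSBS, needed for the fast quenching of excess excitation, had the lone negative value (-0.27, adjusted p = 0.485).

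**Figure D4:**
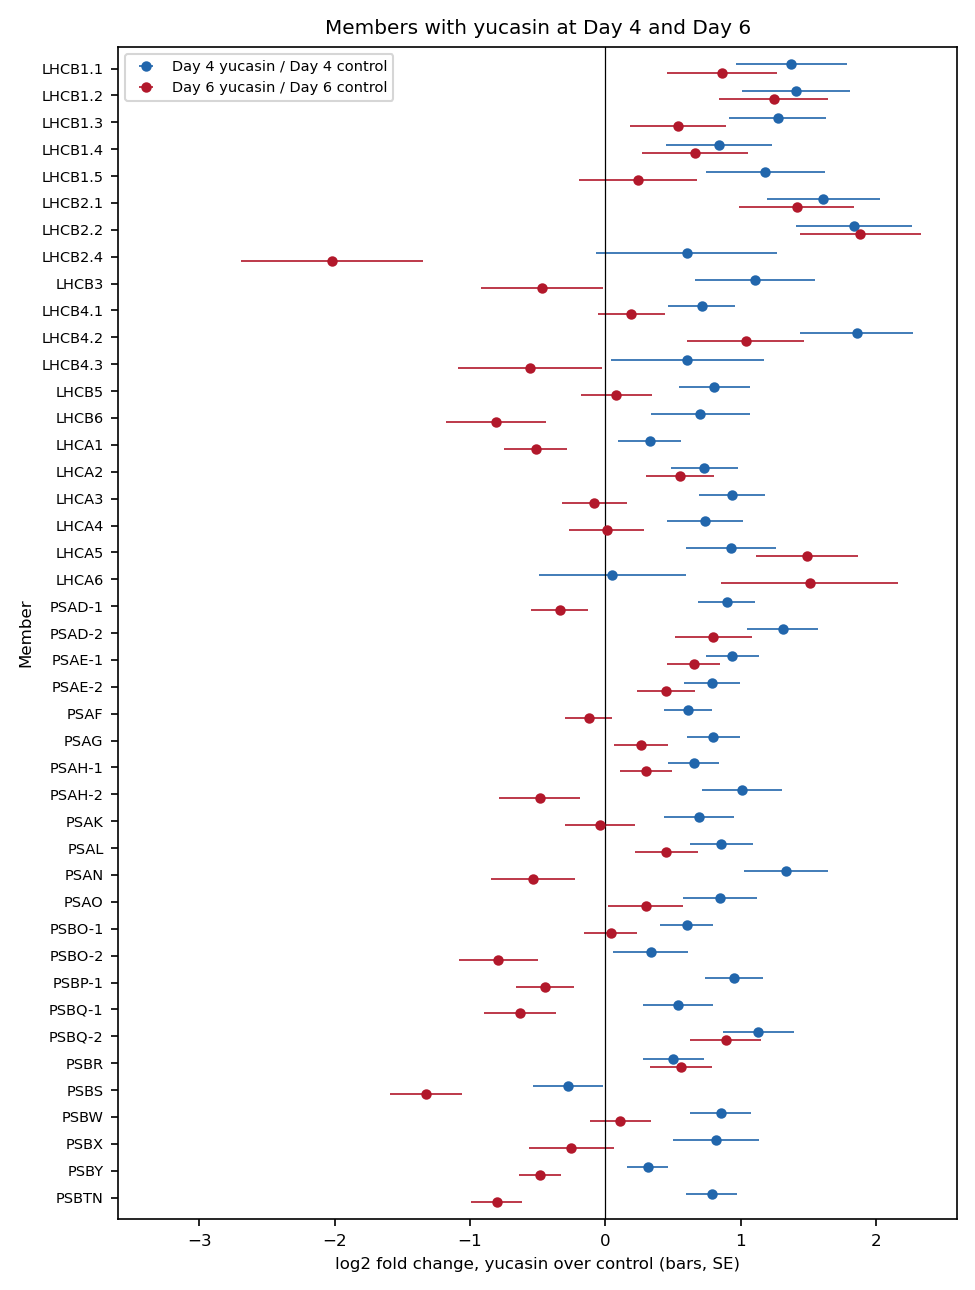
Log2 fold change of each member with yucasin over control at Day 4 (blue) and Day 6 (red); bars are standard errors. At Day 4 all points except PSBS lie above 0, and at Day 6 they lie on both sides, from LHCB2.4 at -2.02 to LHCB2.2 at 1.89.

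At Day 6 the response to yucasin was mixed. With yucasin 5 members rose and 3 fell (background 24.7% of loci higher and 22.6% lower), and 0 passed the fold threshold (7.5% higher, 5.4% lower; 13 higher and 8 lower at an unadjusted p below 0.05, and 6 higher and 3 lower by DESeq2 at any fold with 0 past the fold threshold). The members took 0.314% of counts with yucasin, against 0.404% in controls. LHCB2.1 rose, with 38.96, 76.5 and 47.8 CPM with yucasin, against 27.2, 17.9 and 15.997 CPM in controls (log2 fold change 1.41, SE 0.42, adjusted p = 0.00604), as did LHCB2.2 (log2 fold change 1.89, SE 0.45, adjusted p = 0.000878) and LHCA5 (log2 fold change 1.49, SE 0.38, adjusted p = 0.00165). PSAE-1 (log2 fold change 0.65, SE 0.20, adjusted p = 0.00651) and PSBQ-2 (log2 fold change 0.89, SE 0.26, adjusted p = 0.00569) rose, whereas their copies PSAE-2 and PSBQ-1 did not pass (0.45 and -0.63; adjusted p = 0.0707 and 0.0441). The PSBQ-2 share of its pair was 73.3%, 74.2% and 76.4% with yucasin, against 52.4%, 51.8% and 46.3% in controls. The 3 that fell were all PSII subunits, with PSBS at 23.7, 26.7 and 24.95 CPM with yucasin, against 70.2, 66.9 and 51.7 CPM in controls (log2 fold change -1.33, SE 0.26, adjusted p = 0.000162), PSBTN (log2 fold change -0.803, SE 0.19, adjusted p = 0.000961) and PSBY, named after its values were seen (log2 fold change -0.48, SE 0.15, adjusted p = 0.00934). LHCB1.3, LHCB4.3 and LHCA6 did not pass (0.54, -0.56 and 1.51; adjusted p = 0.195, 0.382 and 0.0504). Leaving out replicate 6, 7 or 8 gave 4, 1 or 0 members higher and 1, 3 or 2 lower. PSBS passed in each of these, PSBTN did not without replicate 6, and LHCB2.1, LHCB2.2, LHCA5, PSAE-1, PSBQ-2 and PSBY lost the call without at least 1 of these replicates (adjusted p = 0.0108 to 0.0902). Past the fold threshold, 1 member, LHCB2.4, was lower with total-count scaling, with no filter, with the likelihood-ratio test and in the fit blocked by replicate number. In addition, total-count scaling gave 1 higher and 13 lower. In the same libraries guard cell markers summed to 60.4 to 68.9 CPM with yucasin, against 7.81 to 14.9 CPM in controls, with all 4 genes counted, senescence markers to 256 to 368 CPM, against 39.5 to 51.1 CPM, and vascular markers to 12.3 to 28.6 CPM, against 56.3 to 75.2 CPM, and mitochondrial loci took 1.93% to 2.11% of counts, against 0.309% to 0.3199%. The dark- and sugar-responsive genes, higher with yucasin at Day 4, summed here to 864 to 1245 CPM with yucasin, against 1357 to 2147 CPM in controls. The mesophyll markers outside the set summed to 340 to 473 CPM with yucasin, against 420 to 618 CPM in controls. The part of these in the members' results was not tested.

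The yucasin effect itself differed between Day 6 and Day 4 for 5 members, all lower at Day 6 (background 3.75% of loci lower and 8.47% higher). The differences were -1.59 for PSBTN (adjusted p = 0.000276), -1.87 for PSAN (0.00346) and -1.23 for PSAD-1 (0.00441), and, named after their values were seen, -1.40 for PSBP-1 (0.00211) and -0.80 for PSBY (0.00961). PSAD-2 did not pass (-0.51, adjusted p = 0.35), nor did LHCB1.3, LHCB2.1, LHCB4.3, LHCA5 and LHCA6, with differences of -0.74, -0.199, -1.16, 0.56 and 1.46 and adjusted p between 0.219 and 0.832. Without replicate 4 or 6 the count was 1, and without replicate 8 it was 2. PSBTN passed in each of these, and the other 4 did not in some (adjusted p = 0.0106 to 0.0589).

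With MB-3, few members passed the test in experiment 2. At Day 4, 0 members rose or fell (background 0.83% of loci higher and 2.23% lower, and 0.0735% and 1.23% past the fold threshold; 2 higher and 1 lower at an unadjusted p below 0.05, and 0 by DESeq2), although all 3 MB-3 libraries were above all 3 controls for 20 members, as for 16.3% of loci. At Day 6, 3 members fell and 0 rose (7.25% lower, 9.54% higher), and 0 passed the fold threshold (1.97% lower, 2.25% higher; 3 higher and 10 lower at an unadjusted p below 0.05, and 5 lower by DESeq2 at any fold with 0 past the fold threshold). They were LHCA1 (log2 fold change -0.901, SE 0.24, adjusted p = 0.00574), PSBQ-1 (log2 fold change -0.94, SE 0.27, adjusted p = 0.00998) and PSBTN, with 33.2, 31.4 and 23.3 CPM with MB-3, against 70.04, 53.1 and 52.6 CPM in controls (log2 fold change -1.01, SE 0.19, adjusted p = 0.000346). PSBQ-2 did not pass (0.32, adjusted p = 0.392), and its share of the pair was 69.4%, 73.7% and 69.4% with MB-3, against 52.4%, 51.8% and 46.3% in controls. In the fit blocked by replicate number 4 members fell, and 1 of them, LHCB2.4 (-2.34, adjusted p = 0.00025), passed the fold threshold. Without replicate 7 there was 1 lower member and without replicate 8 there were 0, and PSBQ-1 did not pass without replicate 6 either (adjusted p = 0.052). In these libraries the senescence markers (4 of 4 counted) summed to 166 to 202 CPM with MB-3, against 39.5 to 51.1 CPM in controls, the vascular markers (5 of 6) to 13.6 to 21.2 CPM, against 56.3 to 75.2 CPM, and mitochondrial loci took 0.702% to 1.19% of counts, against 0.309% to 0.3199%, and their part was not tested. LHCB1.3, LHCB2.1, LHCB4.3, LHCA5 and LHCA6 had log2 fold changes of 0.22 to 0.77 at Day 4 (adjusted p 0.293 to 0.782) and of 0.02 to 0.81 at Day 6 (0.127 to 0.973). No member passed the test of a difference in the MB-3 effect between Days 6 and 4 (0 called, 1.24% of loci higher and 0.0945% lower; 0 higher and 7 lower at an unadjusted p below 0.05), with differences of -0.48, -0.05, -0.39, 0.59 and 0.01 for these 5 (adjusted p 0.658 to 0.995).

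LHCB2.4 (AT3G27690) went its own way among the LHCB2 copies, and it has no 50-base window in common with them. It was singled out after its values were seen. In experiment 2 it had 7.97, 13.1, 23.1, 69.1 and 36.8 CPM at Day 0, 6.03, 6.16 and 9.27 CPM at Day 2, 4.08, 3.01 and 18.9 CPM at Day 4 and 47.9, 32.4 and 26.7 CPM at Day 6. It fell at Day 2 (log2 fold change -2.08, SE 0.64, adjusted p = 0.00497), though not without replicate 4, 7 or 8 (adjusted p = 0.0156, 0.0365 and 0.0121), and did not pass at Day 6 (0.22, adjusted p = 0.707). The log2 fold change at Day 6 against Day 4 was 2.05 (adjusted p = 0.0181), and without replicate 6, whose Day 4 library stood apart at 18.9 CPM, it was 3.12 (adjusted p = 0.00082). Replicate 6 is the only number that the Day 4 and Day 6 controls share. Without it, day and replicate cannot be told apart, so the refit does not settle the rise. Its share of the LHCB2 counts was 12.1%, 6.75% and 7.55% with yucasin and 19.1%, 7.36% and 6.303% with MB-3 at Day 6, against 53.5%, 52.9% and 50.9% in controls.

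The inhibitor groups were low in LHCB2.4 at Day 6. It had 9.28, 9.801 and 7.35 CPM with yucasin and 15.9, 4.78 and 3.01 CPM with MB-3, against 47.9, 32.4 and 26.7 CPM in controls, with no overlap. In the fit reported neither difference passed (yucasin log2 fold change -2.02, SE 0.67, adjusted p = 0.0127; MB-3 log2 fold change -2.297, SE 0.68, adjusted p = 0.0141). Both passed both thresholds with the likelihood-ratio test, with no filter, with total-count scaling and in the fit blocked by replicate number, at -2.01 to -2.51 with yucasin (adjusted p = 0.00035 to 0.00659) and -2.185 to -2.42 with MB-3 (adjusted p = 0.00025 to 0.00987), and neither did with DESeq2, nuclear loci only or all variants summed. The MB-3 difference passed them also without replicate 6 (-2.98, adjusted p = 0.00162). At Day 4 it had 9.86, 6.94 and 22.7 CPM with yucasin and 1.91, 1.46 and 3.07 CPM with MB-3, against 4.08, 3.01 and 18.9 CPM in controls, and neither passed (log2 fold changes 0.602 and -2.02; adjusted p = 0.565 and 0.122). LHCB2.1 and LHCB2.2 rose with yucasin at Day 6 and had positive values with MB-3 that did not pass (0.72 and 1.01; adjusted p = 0.217 and 0.0944), and the sum of the LHCB2 copies (0.65 with yucasin at Day 6, adjusted p = 0.199) combined the opposite values of its copies.

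**Figure D5:**
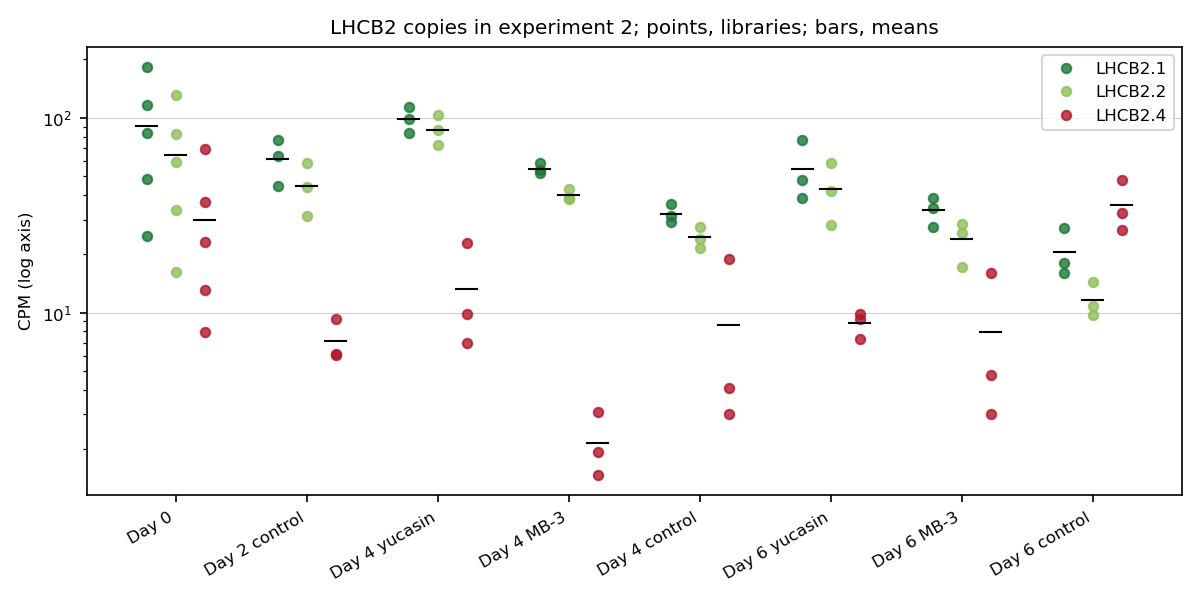
Levels (CPM, log axis) of LHCB2.1, LHCB2.2 and LHCB2.4 in each group of experiment 2; points are libraries and bars are means. LHCB2.4 is the highest of the 3 copies in Day 6 controls, at 26.7 to 47.9 CPM, and by mean the lowest in every other group.

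At Day 14, 0 members passed the test of MB-3 against control at any fold (background 4.64% of loci higher and 5.71% lower, and 1.77% and 3.51% past the fold threshold). At an unadjusted p below 0.05 the counts were 4 higher and 0 lower, and DESeq2 called 1 higher at any fold and 0 past the fold threshold. LHCA5 had 3.07, 5.21 and 5.11 CPM with MB-3, against 1.32, 0.625 and 1.92 CPM in controls, and missed the threshold narrowly (log2 fold change 1.81, SE 0.43, adjusted p = 0.01) but passed with DESeq2, the likelihood-ratio test, total-count scaling, no filter, nuclear loci only, all variants summed or the replicate block (adjusted p = 0.000294 to 0.00952). LHCB2.1 had 16.05, 29.9 and 24.1 CPM with MB-3, against 6.61, 9.22 and 6.25 CPM in controls (log2 fold change 1.66, SE 0.53, adjusted p = 0.0413). LHCB4.3 had 8.37, 17.7 and 17.3 CPM with MB-3, against 4.63, 5.21 and 5.35 CPM in controls (log2 fold change 1.51, SE 0.51, adjusted p = 0.0498). In these 3 genes every MB-3 library was above every control, and LHCB1.3 (0.803, adjusted p = 0.284) and LHCA6 (0.92, 0.537) did not pass. MB-3 replicate 1 was below the other 2 for many members, with 0.184% of counts in the set, against 0.353% and 0.362%, and without it the count past the fold threshold was still 0.

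Against Day 0, Day 14 MB-3 had 31 members lower and 1 higher (background 27.1% lower and 29.2% higher), 26 and 1 of them past the fold threshold (13.8% and 18.4%). In every Day 14 MB-3 library 31 members were lower and 1 higher than in every Day 0 library, as were 33.8% and 37.6% of loci. With total-count scaling 17 fell and 4 rose (7 and 1 past the fold threshold), without replicate 1 of both groups 20 fell, and without Day 14 MB-3 replicate 1 alone 22 were lower and 1 higher past the fold threshold. The one that rose was LHCB4.3 (log2 fold change 2.79, SE 0.63, adjusted p = 0.00152), which had 8.37, 17.7 and 17.3 CPM with MB-3, against 3.31, 1.34 and 1.52 CPM at Day 0, and which no longer passed without replicate 2 (2.39, adjusted p = 0.0304). The largest falls by class were LHCB2.4 (log2 fold change -4.93, SE 0.83, adjusted p = 0.000161), LHCA6 (log2 fold change -4.29, SE 0.69, adjusted p = 0.000111), PSAE-2 (log2 fold change -3.104, SE 0.39, adjusted p = 1.34e-05) and PSBR (log2 fold change -3.32, SE 0.43, adjusted p = 1.55e-05). LHCB1.3 and LHCA5 fell (-2.87 and -2.44; adjusted p = 0.000459 and 9.47e-05), LHCB2.1 did not pass (-1.61, adjusted p = 0.0153) except without replicate 2 (-2.23, adjusted p = 0.00176), and PSAH-1 fell (-2.85) while PSAH-2 did not pass (-0.46, adjusted p = 0.393). Of the LHCB2 counts, LHCB2.4 gave 1.596%, 1.37% and 2.04% with MB-3, against 18.9%, 5.18% and 5.37% in Day 14 controls, at levels of 0.419 to 2.65 CPM in these 6 libraries.

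Leaving out 2,4-D gave no member past the test at Day 4 (0 called at any fold, background 1.82% of loci higher and 3.7% lower, and 0.759% and 2.63% past the fold threshold; 3 higher and 0 lower at an unadjusted p below 0.05, and 0 by DESeq2). The members took 0.286% of counts without 2,4-D, against 0.297% in controls. LHCB1.3 had 331, 150.3 and 158 CPM without 2,4-D, against 238, 153 and 221 CPM in controls (log2 fold change 0.06, SE 0.42, adjusted p = 0.923), and LHCB2.1, LHCA5 and LHCA6 did not pass (-0.08, 0.299 and 1.35; adjusted p = 0.921, 0.536 and 0.131). Replicate 9 stood apart from the other 2 libraries without 2,4-D: PSAH-2 gave 28.9%, 9.51% and 9.23% of its pair in the 3 libraries, against 41.5%, 27.1% and 23.7% in controls, and PSAD-2 25.3%, 62.8% and 61.9%, against 18.5%, 31.7% and 33.9%. Without replicate 9 of both groups 1 member was higher (PSAD-2, 0.88, adjusted p = 0.00125) and 5 were lower at any fold, which were PSAH-2 (-1.71), LHCB6 (-1.58), PSBX (-1.56), PSBP-1 (-1.102) and PSAD-1 (-0.88), with adjusted p between 0.000272 and 0.00492, all named after their values were seen. The share of all loci called in that refit was not counted, so whether these members stand out from other loci is not known. The mean level of the senescence markers was 944 CPM without 2,4-D, against 292 CPM in controls, and the vascular markers summed to 0.326 to 0.940 CPM, against 8.29 to 17.8 CPM, with 2 of 6 vascular genes at 0 in all libraries without 2,4-D.

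Genes around the set moved in the same libraries. GLK1 (AT2G20570), the factor that activates many antenna and chlorophyll genes in leaves, averaged 35.3 ± 3.16 CPM at Day 0, against 179.6 ± 35.8 CPM in leaves (SD, n = 3; log2 fold change -2.34, adjusted p = 6.06e-05), and 0.314 ± 0.386 CPM in Day 14 controls (-6.58 against Day 0, adjusted p = 1.59e-07). It was higher with MB-3 than in controls at Day 14 (2.93, 0.00179) and at Day 6 (2.17, 6.8e-07), and higher with yucasin at Day 4 (0.79, 0.00853) and Day 6 (2.39, 2.94e-08). At Day 6 against Day 4 in controls, GLK1 fell by 2.43 on the log2 scale (adjusted p = 2.76e-07). The relation of GLK1 to the members was not tested. Its close relative GLK2 fell at Day 0 against Leaf (-5.26, 1.09e-06) and rose at Day 2 (1.94, 0.000148) and Day 6 (1.29, 0.00594) against Day 0.

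In chlorophyll synthesis, HEMA1, the first enzyme of the pathway, fell at Day 0 (-2.26, 1.14e-05) and rose with yucasin at Day 4 (0.91, 0.00107) and Day 6 (1.18, 1.42e-05). CHLH/GUN5, a subunit of magnesium chelatase, fell at Day 0 (-2.57) and at Days 4 and 6 of culture (-2.31 and -2.31) and rose with yucasin at Day 4 (0.87, 0.00433). PORB and PORC, light-dependent protochlorophyllide reductases, fell at Day 0 against Leaf (-5.59 and -3.65), and PORB then rose against Day 0 at Days 2, 4 and 6 of culture (2.16, 2.58 and 3.54) and at Day 14, unlike the antenna genes, whose proteins bind the chlorophyll. PORB fell at Day 6 with yucasin (-1.61, 0.000166) and with MB-3 (-1.46, 0.0013). Of the chlorophyll synthesis list, 4 of 30 rose and 19 fell at Day 0 against Leaf, 7 of 29 rose and 15 fell at Day 4, and 4 of 30 rose and 12 fell at Day 14 against Day 0. Of the photosystem assembly factors and further subunit copies, 0 of 28 rose and 20 fell, 2 of 28 rose and 17 fell, and 2 of 28 rose and 13 fell in these 3 comparisons. With yucasin at Day 4, 6 chlorophyll synthesis genes, 1 assembly gene and 3 of the 12 regulators rose and 0 fell, and at Day 6 they were 4 higher and 10 lower, 1 higher and 10 lower, and 4 higher and 0 lower. With MB-3 at Day 4 and without 2,4-D, 0 genes of the 3 lists passed. Of 8 chlorophyll breakdown genes, 4 rose and 3 fell at Day 0 against Leaf, 2 rose and 6 fell at Day 14 against Day 0, and 4 rose and 0 fell with yucasin at Day 6. The lists share libraries with the members, and no relation between them was tested.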

How the data were processed

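Single-end reads from strand-marking mRNA libraries were mapped to TAIR10 with Bowtie 0.12.9 by the authors, and the deposited files hold whole-number read counts per transcript variant, with no coordinates. How reads that fit several transcripts were counted, and whether strand was used, is not given in the sources used here. Each locus was read from its lowest-numbered variant, and the library totals of these were 101.9% to 104.7% of the mapped reads the files state. No pair of libraries within a group agreed within sampling noise (52 pairs, smallest chi-square per degree of freedom 4.13), so each was counted as a replicate.

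Counts were fitted per experiment with edgeR 4.0.16 in R 4.3.3 (TMM normalisation, glmQLFit and glmQLFTest, all groups of an experiment in a fit, low-count filter by filterByExpr), which left 20205, 19043 and 17665 loci in experiments 1, 2 and 3 and 20921 in the fit joining experiments 2 and 3. P-values were Benjamini-Hochberg adjusted over all loci tested. The study's rule was kept, a log2 fold change over 2 in size with p and adjusted p under 0.01, and calls at any fold use the adjusted p alone. Background shares of loci belong to the fits reported at these thresholds. Counts at an unadjusted p below 0.05 and counts under the alternatives below are of members only, with no share of all loci beside them. CPM are counts per M of TMM-scaled library size, and shares are of raw counts. SE was derived from the fitted fold change and its F statistic. The fitting code was tested on simulated data. Upstream windows and coding sequences were taken from RefSeq TAIR10.1, a version of the genome the authors used. Alternatives were DESeq2 1.42.0, a likelihood-ratio test, total-count scaling, nuclear loci only, no filter, all variants summed, copies summed by family, the replicate number as a block, and leaving out each replicate. Leaving out Leaf replicate 3 alone or Day 14 MB-3 replicate 1 alone was added after the data were seen.

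The members, the lists and the rule for named genes were chosen with earlier results of these data known. That rule gives test values, in each comparison, for the largest fall and the largest rise of each class among members with adjusted p under 0.01, for LHCB1.3, LHCB2.1, LHCB4.3, LHCA5 and LHCA6, and for copy pairs that differ in their call. Samples with the same replicate number deviated together, at correlations of 0.166 to 0.421 for yucasin and 0.227 to 0.464 for MB-3 at Day 4, 0.261 to 0.399 for MB-3 at Day 6 and 0.283 to 0.562 without 2,4-D, each with its control (every pair over 0.1). The samples of these comparisons thus look paired, although the labels give the numbers only. The fits reported used group alone and ignore this pairing, and the fit blocked by replicate number is given as an alternative where stated. Its member counts at any fold are not given for yucasin at Day 4, MB-3 at Day 4 or without 2,4-D. Those counts therefore rest on fits that ignore the pairing.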

Additional observations from a re-analysis of the deposited data

Results flagged for a closer look

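The level of PSBTN, a small PSII subunit, in Day 0 replicate 7 of experiment 2 was 89.0 CPM, while the other 4 Day 0 libraries of that experiment lay between 48.5 and 55.0 CPM, so that the gap to the next library took most of the group's range. Of 63 such values examined in groups of 4 or more libraries, 1 stood out in this way, and chance gives about 1 in 20. The same library had the highest share of the 43 genes among these 5, at 1.17% of counts. The effect of yucasin differed between days for 5 members by a test of the difference itself, with the Day 6 effect minus the Day 4 effect at -1.59 for PSBTN, -1.87 for PSAN, -1.40 for PSBP-1, -1.23 for PSAD-1 and -0.80 for PSBY on the log2 scale. For PSBTN the yucasin libraries had 34.5, 36.3 and 29.9 CPM at Day 6, against 70.0, 53.1 and 52.6 CPM in controls, and 70.5, 50.4 and 60.8 CPM at Day 4, against 32.1, 35.4 and 37.7 CPM in controls. Yucasin and control libraries of Day 6 come from replicates 6 to 8 and those of Day 4 from replicates 4 to 6. Replicate 6 is in all 4 groups, and within it PSBTN was lower with yucasin at Day 6 and higher with yucasin at Day 4, and the fit blocked by replicate number gave 8 members whose effect differed.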

How the results depend on the processing

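Of 1725 values recomputed for 165 named results under the alternatives, 1539 kept their direction and their side of the threshold, 103 lost the call, 43 gained it and 40 changed sign. Counts for the yucasin effect between days, here and below, use the adjusted p alone. Leaving out a replicate gave these ranges of members past the study's rule: Day 0 against Leaf 28 to 38, Day 14 control 22 to 30 and Day 14 MB-3 21 to 30 against Day 0, Day 2 1 to 3, Day 4 15 to 28 and Day 6 17 to 26 against Day 0, Day 6 against Day 4, and yucasin or MB-3 at Day 6, 0 to 1 each, and Day 4 in experiment 3 12 to 26. The range for the yucasin effect between days was 1 to 5. Total-count scaling gave 12 (Day 14 control; 11 lower, 1 higher), 8 (Day 14 MB-3; 7 lower, 1 higher), 1 (Day 2; higher), 4 (Day 4; lower), 8 (Day 6; 6 lower, 2 higher) and 4 (Day 4, experiment 3; 2 lower, 2 higher) against Day 0, 1 each for yucasin and MB-3 at Day 6 and 13 for the yucasin effect between days. The replicate block gave 0 at Day 2, 1 each for yucasin and MB-3 at Day 6 and 8 for the yucasin effect between days. It moved no other count past the study's rule by over 1.5 times. Without the filter, and with the likelihood-ratio test, yucasin and MB-3 at Day 6 had 1 each. At any fold the counts were 31 (Day 2), 25 (Day 4 against Day 2), 1 (Day 6 against Day 4), 15 and 8 (yucasin, Days 4 and 6), 3 (MB-3, Day 6) and 31 (Day 4, experiment 3).

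Signs turned as follows, in values between -2.02 and 0.92 in the fit reported. With total-count scaling, PSAH-2 was 0.86 (Day 14 MB-3 against Day 0), LHCB2.1 0.26 (Day 2), LHCB4.3 0.15 and PSAD-2 0.29 (Day 6), LHCB4.3 0.040 (Day 4 against Day 2), LHCB1.3 0.034 (Day 6 against Day 4), LHCA6 -0.095 and PSAE-2 -0.039 (yucasin, Days 4 and 6), LHCB1.3 -0.10 (MB-3, Day 6), LHCA6 -0.033 (MB-3 effect between days) and LHCB1.3 -0.23 (without 2,4-D). Of the values that turned, PSAD-2 at Day 6 was the one called in the fit reported. Leaving out a replicate gave values on both sides of 0 for PSAH-2 (-0.34 to 0.57, Day 14 control against Day 0), LHCA6 (-0.43 to 1.398, Day 14 MB-3 against control), LHCB4.3 (-0.28 to 0.041) and PSAH-2 (-0.19 to 0.51) at Day 4 against Day 2, LHCB1.3 (-0.29 to 0.0071, Day 6 against Day 4), LHCA6 (-0.18 to 0.33, yucasin, Day 4), LHCB4.3 (-0.31 to 0.90), LHCA6 (-0.15 to 0.78) and LHCB1.3 (-0.093 to 0.094) with MB-3 at Day 6, LHCB2.1 (-0.61 to 0.22, yucasin effect between days), LHCB4.3 (-1.21 to 0.13), LHCA6 (-0.53 to 0.45) and LHCB2.1 (-0.15 to 0.095) in the MB-3 effect between days, and LHCB1.3 (-0.34 to 0.3034) and LHCB2.1 (-0.86 to 0.36) without 2,4-D. For LHCB1.3 with MB-3 at Day 6, DESeq2 gave -0.011, nuclear loci alone -0.010, no filter -0.0043 and the block -0.0067. The block gave -0.047 for LHCA6 in the MB-3 effect between days, and -0.075 for LHCB1.3 and -0.30 for LHCB2.1 in the difference between experiments. Copies summed gave -0.14 for LHCB1 with MB-3 at Day 6 and, for LHCB2, 0.055 (Day 6 against Day 4), -0.056 (MB-3, Day 6), 0.65 (yucasin, Day 6) and 0.58 (MB-3, Day 4), where LHCB2.1 or LHCB2.4 had the opposite sign. With the block, LHCB2.4 passed with yucasin at Day 6 (-2.01, adjusted p = 0.00035). Same-numbered samples of that comparison correlated at 0.0124 to 0.179, with 1 of 3 pairs over 0.1. The cause of these changes was not tested. LHCA6 had 0 to 24 counts in cultured libraries, so depth limits its folds.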
